A study of Homo sapiens with 6 samples.

Results

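The aminoacyl-tRNA synthetases and 2 scaffold proteins that hold some of them together were followed in RPMI-8402, a line grown from a human T cell leukaemia, with and without induction of guide RNAs against MYC. The set has 38 genes, picked by symbol from the authors' deposited table of 63677 genes and joined by gene identifier to the read counts: 20 cytosolic synthetases, 16 mitochondrial synthetases (symbols ending in ARS2) and the scaffold genes AIMP1 and AIMP2. The 38 symbols matched 47 table entries, and 9 of these, further copies of VARS and VARS2 under other identifiers, had 0 counts in every sample and were set aside. All 38 genes passed the filter on low counts. Both groups consisted of RPMI-8402 carrying Cas9 stably and labelled MYC_KO, grown with tetracycline-free serum. The control group was 3 samples given DMSO, and the other group was 3 samples given doxycycline, which switches on the guides, for 72 hours. No doxycycline group without guides is among the samples used here, and whether the line is 1 clone is not stated in the labels.

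A synthetase joins 1 amino acid to its transfer RNA, the step that makes the genetic code readable. Each compartment that translates needs such enzymes. In human cells most cytosolic and mitochondrial enzymes come from separate nuclear genes, but GARS and KARS each encode both forms, and EPRS joins the glutamate and proline enzymes in a single protein. Several cytosolic enzymes sit in the multi-synthetase complex, held by AIMP1, AIMP2 and EEF1E1. In dividing lymphoid cells MYC is known to drive genes of translation, and the factor ATF4 is known to raise many cytosolic synthetase genes when amino acids run short.

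The promoter letters show where a pair of motifs linked to those factors stand, and the matches fell unevenly between cytosolic and mitochondrial genes. RefSeq windows on GRCh38.p14, of 250 bases before to 50 bases after each start, were found for 32 of the 38 genes, with DARS, LARS, VARS, YARS, AARS2 and VARS2 unmatched. This build differs from the hg19 named for the counts, so no coordinates were carried between them. The motif TGATGNAA, the core that ATF4 and C/EBP partners are known to read at amino acid response genes, was searched on both strands, so that some matches read as its reverse complement. It was found in 7 of 16 cytosolic genes with a window (43.8%) and 1 of 14 mitochondrial genes (7.14%), against 4.46% of 27305 genes and 3.62% of all 35116 windows. The 8 matches follow, 5′ to 3′ on the gene's strand with 8 bases on each side and the motif in capitals.
AARS (chr16:70289678-70289701, minus strand): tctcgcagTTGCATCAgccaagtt
CARS (chr11:3057410-3057433, minus strand): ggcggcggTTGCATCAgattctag
GARS (chr7:30594837-30594860, plus strand): cgcggcgaTTTCATCAtgctccga
IARS (chr9:92293695-92293718, minus strand): tcagcgcgTTGCATCAcctccgtg
MARS (chr12:57488056-57488079, plus strand): ggttccggTTGCATCAgcgaggga
NARS (chr18:57621807-57621830, minus strand): acgctctcTGATGCAAcgccggaa
TARS (chr5:33440959-33440982, plus strand): cctttcgaTTGCATCAgctggtcc
YARS2 (chr12:32756079-32756102, minus strand): cacactgcTGATGGAAaaattaag

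In 5 of these genes (CARS, IARS, MARS, NARS and TARS) the first base of the match lay within 14 bases of the start, and in GARS it lay 33 bases before a start. In AARS and YARS2 it lay 187 and 197 bases before the start. The cytosolic genes with a window and no match were EPRS, FARSA, FARSB, HARS, KARS, QARS, RARS, SARS and WARS. A match of letters is a description of the window, not evidence of binding.

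CACGTG, the canonical E-box that MYC and MAX are known to bind, reads the same on both strands, shares no bases with the TGATGNAA matches here, and was in 1 of 16 cytosolic genes (6.25%), 3 of 14 mitochondrial genes (21.4%) and AIMP2. Over all genes with a window the share was 8.77%, and over all windows 7.26%. The 5 matches are shown in the same way because the guides were aimed at MYC.
IARS (chr9:92293870-92293891, minus strand): tcgttttcCACGTGgaggcgca
CARS2 (chr13:110706505-110706526, minus strand): gggatgcaCACGTGcttcgcta
EARS2 (chr16:23557352-23557373, minus strand): gagaagccCACGTGtgctattc
MARS2 (chr2:197705350-197705371, plus strand): gcctctcaCACGTGctgtcaga
AIMP2 (chr7:6009482-6009503, plus strand): gcgctggcCACGTGcaggtagg

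IARS alone among the 32 genes with a window had both motifs in 1 window. Its 250 bases before the start (chr9:92293698-92293947, minus strand, GRCh38.p14) carry CACGTG 186 bases and the TGATGNAA match 13 bases before the start, both in capitals.
IARS: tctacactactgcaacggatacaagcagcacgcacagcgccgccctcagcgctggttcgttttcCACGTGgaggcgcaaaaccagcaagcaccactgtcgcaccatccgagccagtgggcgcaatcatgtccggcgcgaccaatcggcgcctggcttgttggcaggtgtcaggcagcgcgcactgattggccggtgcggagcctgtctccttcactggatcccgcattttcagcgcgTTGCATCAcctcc

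Read counts per gene summed to between 23121255 and 26214598 per sample, and between 99.88% and 99.91% of them were in the 15492 genes tested. Libraries were scaled with TMM, which sets a common scale from the bulk of genes, and levels are in CPM, the usual unit of counts relative to library size, on that scale. In every list of 3 values below, the order is replicate 1, 2 and 3 of the group. The labels do not state that the replicates came from separate cultures. The p-values therefore reflect only how far these 6 samples scatter, and that scatter may be technical. In bulk RNA, fewer cells of a kind and less RNA per cell cannot be told apart. The T cell genes CD3E and LCK were at 976 and 624 CPM on average in DMSO, and 11 T lineage markers summed to 2613 to 2713 CPM in DMSO and 2621 to 2765 in doxycycline. Summed levels of other lineages were low and higher in doxycycline: 4 B lineage markers, MS4A1 at 0 in all samples, summed to 9.42 to 10.1 CPM in DMSO and 11.7 to 13.2 in doxycycline, and 5 myeloid markers to 1.07 to 1.27 and 2.17 to 2.21. Members differed, with CD79A rising (0.96, edgeR adjusted p = 5.38e-05) and PAX5 at -0.46 without passing. MPO, the one myeloid marker that passed the count filter, rose by 1.14 (edgeR adjusted p under 0.05). Of 4 fibroblast and epithelial markers 3 were at 0 in all samples, and COL1A1 made up the sum of 39.9 to 40.2 and 47.3 to 52.9 CPM, a rise by 0.31 that was 0.08 and did not pass with GC content and length corrected. Of 2 red cell markers, HBB was at 0 in all samples and the list summed to at most 0.0380 CPM. Their part in the results below was not tested. MYC itself was not lower: 409, 422 and 407 CPM in DMSO against 459, 431 and 431 CPM in doxycycline (log2 fold change 0.09, SE 0.049, edgeR adjusted p = 0.160). A count per gene does not show whether the reading frame was cut, so the differences below are between DMSO and doxycycline samples, with the state of the MYC protein unknown.

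Of the 38 genes, 19 fell and 0 rose in the doxycycline samples (edgeR quasi-likelihood test, Benjamini-Hochberg adjusted p under 0.05 over all genes tested). Over all 15492 genes, 29.3% were called, 15.5% lower and 13.8% higher. Among the 9671 tested genes with mean log2 CPM above 3, which is closer to the level of the set, 23.4% were lower and 14.1% higher. The fold change was below 0 for 35 of the 38, with QARS, AARS2 and PARS2 above 0 and none of those passing. Of all genes tested 50.1% were below 0, and 59.6% of those with mean log2 CPM above 3. The falls were small, and only DARS passed 0.5 in size. The median log2 fold change over the 38 was -0.14. It was -0.00 over all genes tested and -0.04 over those with mean log2 CPM above 3. The 38 genes together took 0.459%, 0.465% and 0.449% of all counts in DMSO, and 0.421%, 0.428% and 0.425% in doxycycline, so the groups did not overlap on this share of the library. Groups did not overlap for 24 of the 38 genes, in each case lower in doxycycline, where 41.7% of all genes tested did not overlap and 21% did so as lower. The number that fell was 12 with upper-quartile scaling (10.2% of all genes lower, 18.5% higher), 12 with library size alone (10.4% and 17.8%) and 12 without doxycycline replicate 3, with 0 rising in each. It was 15 with the GC content and length of genes corrected (11.4% and 10.8%), and 14 without both DMSO replicate 2 and doxycycline replicate 1 (12.2% and 10.4%), a choice made after seeing the data. Upper-quartile scaling moved the whole-table split from 2408 lower and 2137 higher to 1585 lower and 2871 higher.

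**Figure D1:**
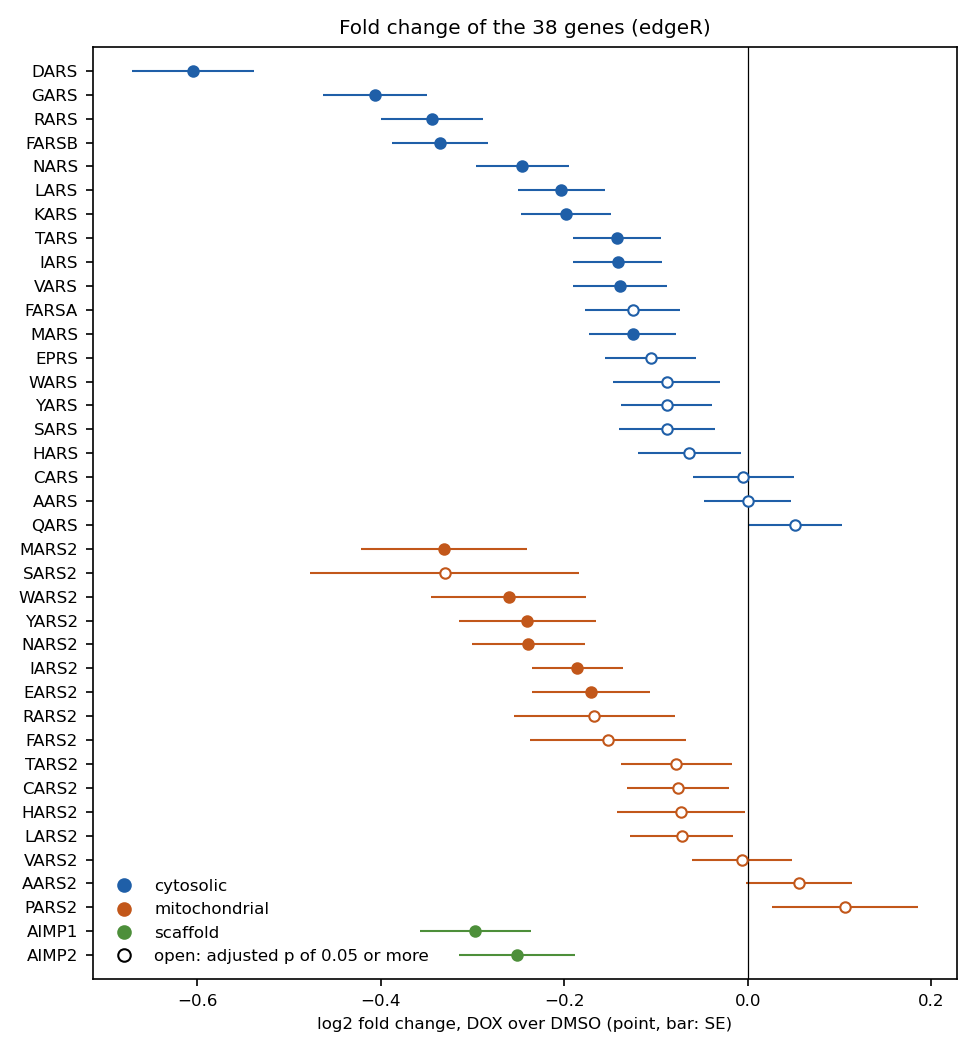
Log2 fold change of each gene, doxycycline over DMSO (x axis), with bars of 1 SE, for cytosolic synthetases, mitochondrial synthetases and scaffold genes; filled points passed an edgeR adjusted p under 0.05. DARS lies farthest to the left at -0.60, and QARS, AARS2 and PARS2 lie to the right of 0 with open points.

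Levels differed widely within the set before any treatment. Per kilobase of merged exon (GENCODE 29), the cytosolic enzymes in DMSO ran from 6.11 CPM per kb for CARS to 119 for FARSA, with a median of 34.8, and the mitochondrial enzymes from 1.49 for SARS2 to 32.0 for IARS2, with a median of 6.10. FARSA at 119 ± 8.30 and GARS at 107 ± 8.10 CPM per kb (SD, n = 3 each) were the highest levels and differed by less than the sum of their SDs, and QARS followed at 69.7 ± 3.92. At the low end of the cytosolic order, CARS (6.11 ± 0.271) and HARS (6.29 ± 0.143) did not differ beyond their spread. IARS2, the mitochondrial isoleucine enzyme, stood apart from its class: the next mitochondrial gene, AARS2, was at 13.5 ± 0.496 CPM per kb. These lengths come from another annotation than the unnamed one used for counting, so ranks of close neighbours are approximate.

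**Figure D2:**
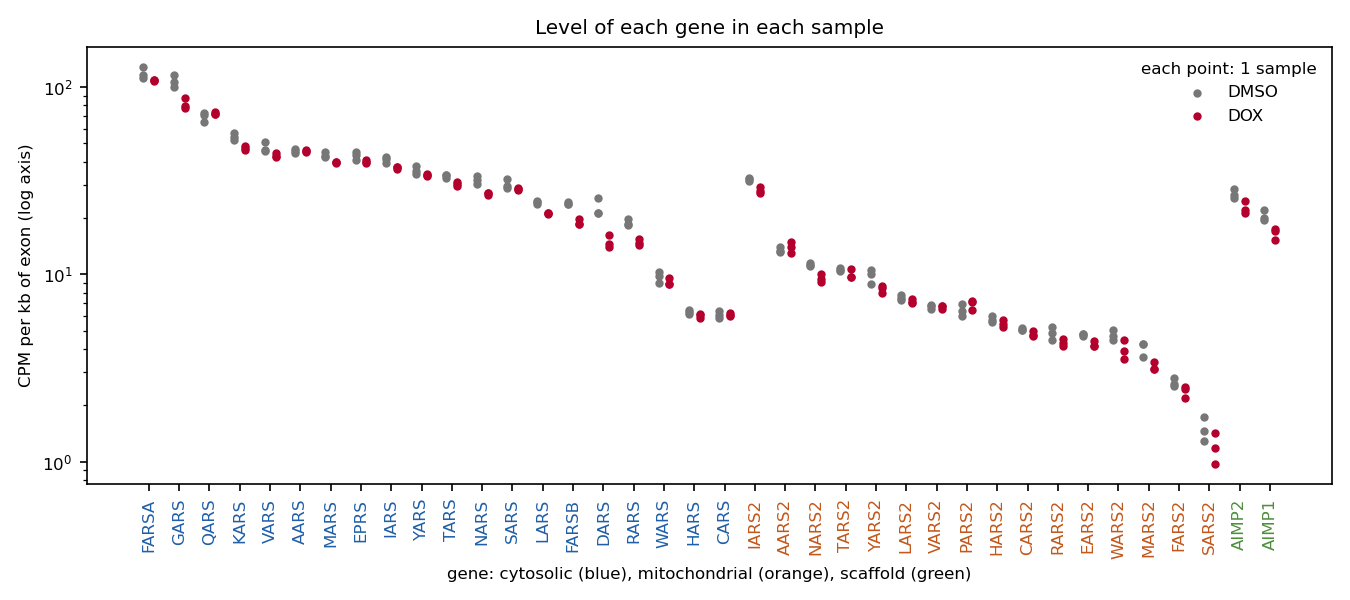
CPM per kb of exon (log axis) of each gene in each of the 3 DMSO and 3 doxycycline samples, with genes ordered by DMSO level within each class. Cytosolic genes run from FARSA at 119 to CARS at 6.11, and only IARS2, at 32.0, brings a mitochondrial gene into the middle of the cytosolic range.

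Among cytosolic synthetases 11 of 20 fell and 0 rose, with a median log2 fold change of -0.13, and without the dual-compartment genes GARS and KARS 9 of 18 fell with a median of -0.13. The count was 7 without any 1 of the doxycycline replicates, 7 under either upper-quartile or library-size scaling, and 9 with GC content and length corrected. DARS, which charges aspartate, was the lead member. It stood at 85.4, 85.8 and 102 CPM in DMSO against 56.1, 65.0 and 58.6 CPM in doxycycline. Every doxycycline sample was below every DMSO sample by a wide margin, and the means were 91.2 ± 9.72 and 59.9 ± 4.62 CPM (SD, n = 3 each). DARS fell by 0.60 on the log2 scale (SE 0.066, edgeR adjusted p = 4.43e-07), and its value ran from -0.67 to -0.43 over the alternatives, with the adjusted p under 0.05 in each.

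GARS, which charges glycine in both compartments, was at 415, 482 and 441 CPM in DMSO against 319, 361 and 329.8 CPM in doxycycline. The groups were apart, and the gene fell by 0.41 (SE 0.057, edgeR adjusted p = 1.19e-05). RARS, for arginine, went from 67.6, 63.4 and 62.5 CPM to 49.3, 50.6 and 52.6 CPM, a fall by 0.34 (SE 0.056, edgeR adjusted p = 6.27e-05). With GC content and length corrected RARS fell by 0.16, less than in the uncorrected fit by over 1.5 times, and still passed (edgeR adjusted p = 0.0191).

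Phenylalanyl-tRNA synthetase is built of alpha chains from FARSA and beta chains from FARSB, and the chains' genes can be set side by side. FARSB was at 81.8, 79.9 and 80.2 CPM in DMSO against 62.7, 66.4 and 62.6 CPM in doxycycline, and it fell by 0.34 (SE 0.052, edgeR adjusted p = 4.1e-05). FARSA was at 273, 312 and 281 CPM in DMSO against 266, 265 and 263 CPM in doxycycline, a difference of -0.13 (SE 0.052, edgeR adjusted p = 0.0695) that did not pass, although the groups did not overlap and it passed without DMSO replicate 1 or 3. The gap closed with the correction: FARSA, a gene of 60.3% GC, then fell by 0.20 (edgeR adjusted p = 0.00130), and FARSB, a gene of 41.6% GC, by 0.21 (edgeR adjusted p = 0.00146). The difference between the chains was not tested.

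NARS, for asparagine, was at 138, 129.8 and 124 CPM in DMSO and at 112, 111 and 108 CPM in doxycycline, and fell by 0.25 (SE 0.051, edgeR adjusted p = 0.000745), or by 0.14 with the correction (edgeR adjusted p = 0.0185). LARS, for leucine, was at 200.3, 194 and 198 CPM in DMSO and 169.7, 172 and 172 CPM in doxycycline. KARS, the lysine enzyme of both compartments, was at 220.5, 230.3 and 212 CPM in DMSO and 196, 193 and 188 CPM in doxycycline. In all 3 of these genes each doxycycline sample was below each DMSO sample. LARS and KARS fell by 0.20 each (SE 0.047 and 0.049, edgeR adjusted p = 0.00200 and 0.00339). The calls of LARS and KARS ended with GC content and length corrected (-0.10 each, edgeR adjusted p = 0.0517 and 0.0799).

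The other 4 cytosolic genes that fell were closer to the threshold. TARS, for threonine, was at 195, 194 and 186 CPM in DMSO and 170.2, 174 and 177 CPM in doxycycline, and fell by 0.14 (SE 0.048, edgeR adjusted p = 0.0256). IARS, for isoleucine, was at 313, 305 and 289 CPM in DMSO and 271, 275 and 276 CPM in doxycycline. MARS, for methionine, was at 297, 315 and 300.3 CPM in DMSO and 281, 277 and 279 CPM in doxycycline. In these genes, and in VARS for valine, no doxycycline sample reached the lowest DMSO sample. IARS, VARS and MARS fell by 0.14, 0.14 and 0.13 (edgeR adjusted p = 0.0285, 0.0418 and 0.0483). All 4 calls were lost under upper-quartile and library-size scaling, and without DMSO replicate 1 or any 1 of the doxycycline replicates. VARS and MARS also lost theirs without DMSO replicate 2. With GC content and length corrected they parted: VARS, at 62.6% GC, fell by 0.32 (edgeR adjusted p = 1.15e-05) and MARS by 0.17 (0.00245), while TARS (-0.06, 0.302) and IARS (-0.07, 0.252) did not pass.

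Of the 9 cytosolic genes that did not pass, AARS was the flattest, at 209, 206 and 200.3 CPM in DMSO and 204, 207 and 204 CPM in doxycycline (log2 fold change -0.00, SE 0.047). QARS, the glutamine enzyme, had the only positive value, 0.05 (SE 0.050, edgeR adjusted p = 0.472). CARS was at -0.00, HARS at -0.06, SARS, WARS and YARS at -0.09 each, EPRS at -0.11 and FARSA at -0.13. AARS and CARS were above 0 with upper-quartile scaling, at 0.05 and 0.04. YARS, the tyrosine enzyme, was at 293, 312 and 283 CPM in DMSO and 275, 282 and 278 CPM in doxycycline, apart by a narrow margin, and passed with the correction (-0.16, edgeR adjusted p = 0.00807). WARS, the tryptophan enzyme, was at 62.6, 65.2 and 57.4 CPM in DMSO and 61.1, 56.8 and 56.3 CPM in doxycycline, with overlap. EPRS was at 246, 235 and 222 CPM in DMSO and 214, 223 and 217 CPM in doxycycline, with overlap, and passed without DMSO replicate 3 (edgeR adjusted p = 0.0334).

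Among mitochondrial synthetases 6 of 16 fell and 0 rose, with a median log2 fold change of -0.16. The count was 3 (18.75%) under upper-quartile or library-size scaling and without doxycycline replicate 3, and 5 (31.25%) with GC content and length corrected. Shares lower among genes with mean log2 CPM above 3 were 15.4%, 15.6%, 17.2% and 17.3% in the same order, so the count of 3 lay near the background. In the fit as reported that share was 23.4%, against 37.5% of the class. These genes had lower counts, and their SEs had a median of 0.067 against 0.051 for the cytosolic class. MARS2, for methionine, had the largest fall of the class among called genes. Its levels were 12.9, 11.0 and 12.8 CPM in DMSO against 10.2, 9.45 and 9.46 CPM in doxycycline, so the groups were apart with the nearest samples close together. MARS2 fell by 0.33 (SE 0.090, edgeR adjusted p = 0.00721), and it was the only mitochondrial gene of the set called in all 15 alternatives.

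NARS2, for asparagine, was at 36.1, 35.4 and 34.9 CPM in DMSO and 28.8, 29.7 and 31.5 CPM in doxycycline, and fell by 0.24 (SE 0.062, edgeR adjusted p = 0.00459). IARS2, for isoleucine, was at 135, 130.5 and 134 CPM in DMSO and 113, 116 and 122 CPM in doxycycline, and fell by 0.19 (SE 0.050, edgeR adjusted p = 0.00608). The groups were apart for both genes, and both calls ended with GC content and length corrected (-0.11 and -0.09, edgeR adjusted p = 0.147 and 0.114). YARS2, for tyrosine, was at 19.2, 22.8 and 21.7 CPM in DMSO and 18.6, 18.1 and 17.2 CPM in doxycycline, with DMSO replicate 1 close to the doxycycline samples. WARS2, for tryptophan, was at 17.1, 18.1 and 19.5 CPM in DMSO and 17.1, 15.1 and 13.5 CPM in doxycycline, where DMSO replicate 1 and doxycycline replicate 1 nearly met. YARS2 and WARS2 fell by 0.24 and 0.26 (SE 0.075 and 0.084, edgeR adjusted p = 0.0173 and 0.0212).

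Under upper-quartile scaling neither passed (edgeR adjusted p = 0.0550 and 0.0590), nor under library size alone, with the correction or without doxycycline replicate 3. YARS2 also lost its call without DMSO replicate 2, alone or with doxycycline replicate 1 left out too, and WARS2 without DMSO replicate 3 or doxycycline replicate 2. EARS2, for glutamate, was at 27.6, 26.7 and 27.7 CPM in DMSO and 23.6, 23.9 and 25.3 CPM in doxycycline, and fell by 0.17 (SE 0.064, edgeR adjusted p = 0.0465). Its call held in 3 of 15 alternatives: without DMSO replicate 2, and with the correction with and without a replicate block.

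The 10 mitochondrial genes that did not pass ran from -0.33 to 0.11. SARS2, the scarcest gene of the set, was at 5.59, 4.17 and 4.72 CPM in DMSO and 4.59, 3.81 and 3.14 CPM in doxycycline, with overlapping groups (-0.33, SE 0.147, edgeR adjusted p = 0.0928). It shares 46.2% of its exon length with an overlapping gene on the same strand, so its counts are uncertain, as are those of VARS2, which shares 22.0% with GTF2H4. SARS2 passed without DMSO replicate 2 or without doxycycline replicate 1. RARS2 was at 13.4, 12.4 and 11.3 CPM in DMSO and 11.6, 10.9 and 10.6 CPM in doxycycline, with overlap (-0.17, and 0.03 with the correction). FARS2, whose enzyme is a single chain, was at 12.3, 13.5 and 12.5 CPM in DMSO and 11.8, 12.1 and 10.6 CPM in doxycycline, without overlap (-0.15). Groups overlapped in TARS2, at 42.4, 44.2 and 43.1 CPM in DMSO and 43.8, 39.3 and 39.7 CPM in doxycycline, and in LARS2, at 51.2, 53.3 and 49.9 CPM in DMSO and 50.3, 48.0 and 48.5 CPM in doxycycline. TARS2, CARS2, HARS2 and LARS2 had log2 fold changes between -0.08 and -0.07. VARS2 was at -0.01 (0.04 with upper-quartile scaling), AARS2 at 0.06 (-0.08 with the correction) and PARS2, for proline, at 0.11. VARS2 fell with GC content and length corrected (-0.19, edgeR adjusted p = 0.00375), as did CARS2 (-0.14, 0.0358) and SARS2 (-0.42, 0.0495).

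**Figure D3:**
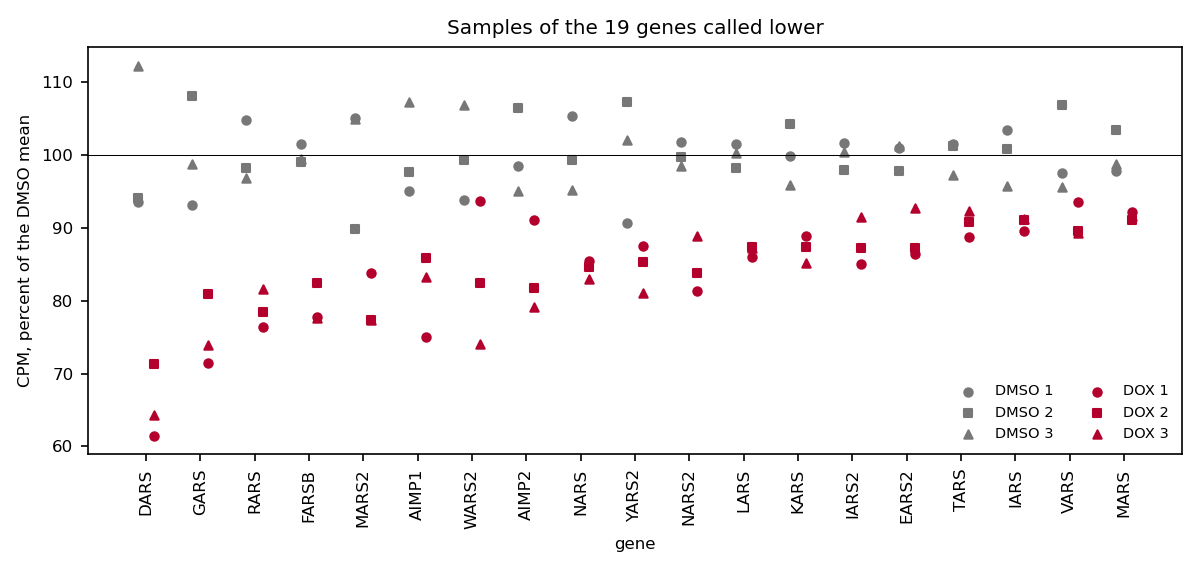
CPM of the 19 genes that fell, in each sample, as a percent of the gene's mean in DMSO, with genes ordered by fold change and 1 symbol per replicate. Doxycycline samples of DARS lie lowest, and the samples of WARS2 nearly meet between groups.

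AIMP1 and AIMP2 both fell. AIMP1 was at 64.7, 66.5 and 73.0 CPM in DMSO against 51.0, 58.4 and 56.7 CPM in doxycycline (-0.30, SE 0.061, edgeR adjusted p = 0.000667). AIMP2 was at 48.8, 52.8 and 47.2 CPM in DMSO and 45.2, 40.6 and 39.3 CPM in doxycycline (-0.25, SE 0.063, edgeR adjusted p = 0.00396). The groups were apart for both, with doxycycline replicate 1 of AIMP2 close to DMSO replicate 3. AIMP1 has the lowest GC content of the set, 36.3%, and its call ended with the correction (-0.09, edgeR adjusted p = 0.211), while AIMP2 kept its call in all 15 alternatives, at -0.15 with the correction. AIMP2 shares 28.9% of its exon length with EIF2AK1 on the opposite strand, and the counting's strand setting is not stated in the labels.

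The complex that these scaffolds hold has 8 of the cytosolic enzymes. Of its 10 genes in the set 8 fell, namely DARS, RARS, LARS, KARS, IARS, MARS, AIMP1 and AIMP2, and EPRS and QARS did not pass. The median was -0.20 for the complex and -0.11 for the 12 cytosolic enzymes outside it, of which 5 fell. Over all genes tested 15.5% were lower, and 23.4% of those with mean log2 CPM above 3. The complex genes had a median GC content of 43.4% and the other cytosolic enzymes 51.6%. With GC content and length corrected the order turned. Of complex genes 4 of 10 fell, with a median of -0.10, and 6 of 12 outside the complex, with a median of -0.12. In that fit 11.4% of all genes were lower, and 17.3% of those with mean log2 CPM above 3. Under upper-quartile scaling, and without any 1 of the doxycycline replicates, 6 of 10 and 3 of 12 fell. The difference between complex and other genes was not tested. Split by catalytic fold, 5 of 9 class I and 6 of 10 class II cytosolic enzymes fell, and 5 of 9 class I and 1 of 7 class II mitochondrial enzymes fell, without a test of either split, and under upper-quartile scaling 2 of 9 class I enzymes fell in each compartment.

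Cytosolic and mitochondrial enzymes were then compared within each sample, where the ratio of 2 counts needs no library scaling. The summed counts of the cytosolic class were 6.80, 7.07 and 6.73 times those of the mitochondrial class in DMSO, and 6.51, 6.87 and 6.59 times in doxycycline. The groups overlapped, with means of 6.86 ± 0.179 and 6.66 ± 0.187 (SD, n = 3 each; exact two-sided permutation p = 0.300). The class medians of -0.13 and -0.16 were -0.14 and -0.13 without DMSO replicate 1, and -0.13 and -0.12 without doxycycline replicate 3. Summed levels of the cytosolic class were 3937, 4099 and 3842 CPM in DMSO against 3544, 3592 and 3534 CPM in doxycycline, and those of the mitochondrial class 579, 580.0 and 571 against 544, 523 and 536 CPM. Each class was lower in every doxycycline sample than in any DMSO sample.

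Among the 13 amino acids with 1 cytosolic and 1 mitochondrial gene in the set, the ratio was lower in doxycycline for 6, and the median log2 change in ratio was 0.01. Groups did not overlap for 3 of the 13, each lower: RARS to RARS2, LARS to LARS2 and VARS to VARS2. They overlapped for the other 10. The exact two-sided permutation p of each of the 3 was 0.1, the lowest it can reach. Taken singly and not as ratios, 41.7% of all genes tested had groups that did not overlap. RARS counts were 5.04, 5.13 and 5.53 times those of RARS2 in DMSO, and 4.26, 4.64 and 4.98 times in doxycycline. LARS to LARS2 went from 3.91, 3.64 and 3.96 to 3.37, 3.59 and 3.55, and VARS to VARS2 from 4.92, 5.32 and 5.03 to 4.72, 4.69 and 4.52. In these 3 amino acids the cytosolic gene fell, and the mitochondrial partner did not pass, at -0.17 for RARS2, -0.07 for LARS2 and -0.01 for VARS2. The SE was 0.088 for RARS2 and 0.056 for RARS. Passing in 1 gene and not in the other is no test of their difference. The ratios carry no correction for GC content. With GC content and length corrected, LARS and LARS2 both stood at -0.10 and neither passed. VARS and VARS2 both passed, at -0.32 and -0.19. RARS passed at -0.16, and RARS2 stood at 0.03.

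In the other direction, MARS to MARS2 went from 23.1, 28.6 and 23.4 to 27.4, 29.3 and 29.5 times, with overlapping groups. YARS to YARS2 went from 15.2, 13.7 and 13.1 to 14.8, 15.6 and 16.2 times, also overlapping. NARS and NARS2, both of which fell, kept a ratio of 3.68 ± 0.126 in DMSO and 3.68 ± 0.222 in doxycycline (SD, n = 3 each). HARS and HARS2, divergent genes whose RefSeq starts lie 84 bases apart and whose exons overlap, had ratios of 2.30 ± 0.121 and 2.31 ± 0.172.

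In all, 17 ratios were compared, FARSB to FARS2 being the remaining one whose groups were apart. With 3 samples against 3 the exact two-sided permutation test cannot go below 0.1, which 4 of the 17 reached, and after Benjamini-Hochberg adjustment the smallest p of this exact test was 0.425. No single ratio could therefore pass.

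**Figure D4:**
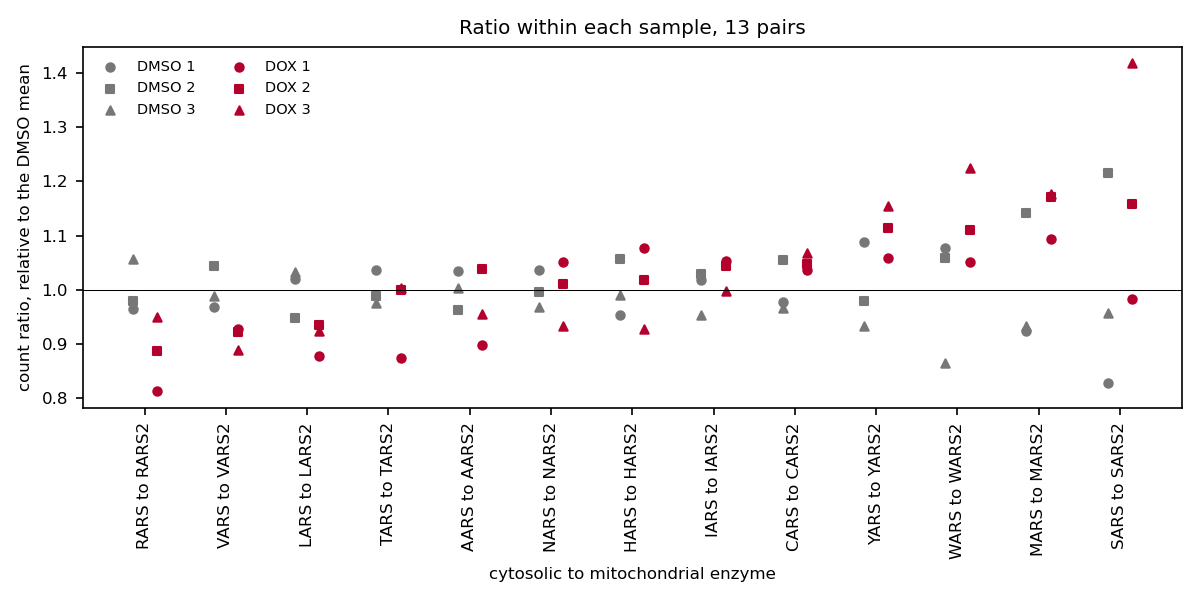
Ratio of counts of the cytosolic to the mitochondrial gene within each sample, relative to the pair's mean in DMSO, for 13 amino acids, ordered by the change. Groups are apart for RARS, LARS and VARS, and the pair of SARS, whose mitochondrial gene had the fewest counts, scatters most.

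Fold changes in these libraries followed the GC content of genes, and the set followed with them. Among all tested genes split into terciles of GC content, the lowest tercile had a median log2 fold change of -0.10 and the highest had 0.12. Of the 38 genes, 12 were in the lowest tercile, 15 in the middle and 11 in the highest. In the lowest tercile, 6 of 7 cytosolic and 3 of 4 mitochondrial enzymes fell, as did AIMP1, where 28.3% of all genes of that tercile were lower. In the highest tercile, 2 of 5 cytosolic enzymes (MARS and VARS) and 0 of 6 mitochondrial enzymes fell and 0 rose, where 4.85% of all genes of that tercile were lower and 28.2% higher. Across the 38 genes GC content and fold change had a Pearson r of 0.51 and a Spearman rho of 0.59, as a description, since genes share libraries. With the correction these were -0.18 and -0.16.

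After the correction 9 cytosolic and 5 mitochondrial enzymes and AIMP2 fell and 0 genes rose, with class medians of -0.10 and -0.12. Over all genes the correction left 11.4% lower and 10.8% higher, and over those with mean log2 CPM above 3, 17.3% and 9.71%. The calls lost were those of IARS, KARS, LARS, TARS, IARS2, NARS2, WARS2, YARS2 and AIMP1, and the genes gained were FARSA, YARS, CARS2, SARS2 and VARS2. Called with and without it were DARS, GARS, FARSB, RARS, NARS, MARS, VARS, MARS2, EARS2 and AIMP2. A real change that tracks GC content or length would be taken out by the same step.

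**Figure D5:**
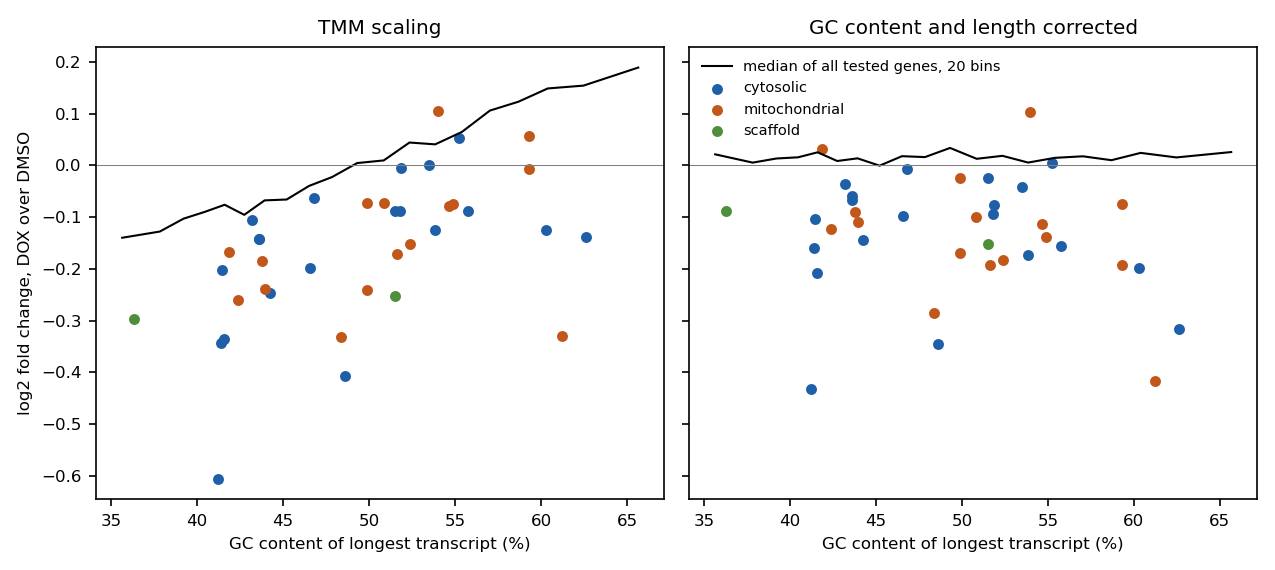
Log2 fold change, doxycycline over DMSO, against the GC content of each gene's longest transcript for the 38 genes, with TMM scaling alone (left) and with GC content and length corrected (right); the line is the median of all tested genes in 20 bins of GC content. The line climbs with GC content on the left and is nearly flat on the right, and most of the 38 genes lie below it in both.

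Set against the promoter letters shown above, 5 of the 7 cytosolic genes with TGATGNAA fell (GARS, IARS, MARS, NARS and TARS) and AARS and CARS were both at -0.00. Of the 9 cytosolic genes with a window and no match, FARSB, KARS and RARS fell. Median log2 fold changes were -0.14 with the motif and -0.11 without. With GC content and length corrected they were -0.08 and -0.09, and 3 of 7 genes with the motif and 3 of 9 without it fell. Of the genes with CACGTG, IARS, EARS2, MARS2 and AIMP2 fell and CARS2 did not pass. Without it, 7 of 15 cytosolic and 4 of 11 mitochondrial genes with a window fell. In the fit as reported 15.5% of all genes were lower, and 23.4% of those with mean log2 CPM above 3. With GC content and length corrected, 3 of 3 mitochondrial genes with CACGTG fell, with a median of -0.19. Of those without it 1 of 11 fell, with a median of -0.11. The cytosolic gene IARS did not pass (-0.07), and 6 of 15 cytosolic genes without CACGTG fell, with a median of -0.09. In that fit 11.4% of all genes were lower, and 17.3% of those with mean log2 CPM above 3. CARS2 passed in no fit without the correction, and the call of EARS2 held in 3 of 15 alternatives. CARS2 and AIMP2 also have a window without CACGTG, and CARS, GARS and TARS a window without TGATGNAA. These splits have few genes and carry no test.

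ATF4 response genes beyond the synthetases were listed from general knowledge. Of 26 tested members 6 fell and 4 rose, with a median log2 fold change of -0.01 that was 0.04 with upper-quartile scaling, and 3 fell without both DMSO replicate 2 and doxycycline replicate 1. The counts of 6 and 4 lie near those of all tested genes with mean log2 CPM above 3, of which 23.4% were lower and 14.1% higher. With GC content and length corrected 9 of the 26 fell and 4 rose. In that fit 17.3% of genes above that level were lower and 9.71% higher. The smallest p among falls were those of PSAT1 (-0.32), which makes serine, and of the mitochondrial folate enzymes MTHFD2 (-0.28) and SHMT2 (-0.22). Rises with the smallest p were those of DDIT4 (0.59), an inhibitor of mTORC1, PPP1R15A (0.35), which directs dephosphorylation of eIF2, and SESN2 (0.26), a leucine sensor. EdgeR adjusted p for these 6 genes ran from 4.10e-05 for PSAT1 to 0.00445 for SESN2, and SESN2 did not pass with GC content and length corrected. ATF4 itself, named after its values were seen, was at -0.02 (SE 0.049, edgeR adjusted p = 0.840).

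Lists of other genes on the path from tRNA to protein are read against the same background. Of all genes tested 15.5% were lower, and 23.4% of those above a mean log2 CPM of 3. With the correction these shares were 11.4% and 17.3%. Of 13 tested partners in tRNA charging, 5 fell and 0 rose (3 with the correction), and the median was -0.15: GATC, a subunit of the enzyme that makes glutaminyl-tRNA in mitochondria, by 0.41, DTD2, a deacylase of mischarged tRNA, by 0.46, and SEPHS1, of the selenophosphate synthetase family, by 0.21 had the smallest p. EEF1E1, the remaining scaffold of the complex, fell by 0.35 (SE 0.088, edgeR adjusted p = 0.00433) but not with the correction (-0.05, edgeR adjusted p = 0.686). Of 62 tested genes of tRNA processing and modification, 26 fell and 0 rose, the median being -0.17. The count of falls was 15 under either of the other scalings, with 1 rising under upper-quartile scaling and 0 under library size alone. Under those scalings 15.4% and 15.6% of genes above a mean log2 CPM of 3 were lower. With the correction 25 fell and 0 rose. TRUB2, a pseudouridine synthase of mitochondrial RNA, fell by 0.54, TRMT10C, a subunit of mitochondrial RNase P, by 0.49 and TRMT112, an activator of methyltransferases, by 0.34. Of 17 tested genes of elongation and termination, 7 fell and 0 rose, the median being -0.16. With the correction 8 fell and 0 rose, and under library size alone 7 fell and 1 rose. EIF5A fell by 0.36, the ribosome recycling factor ABCE1 by 0.32 and the mitochondrial elongation factor GFM1 by 0.27.

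In the authors' deposited table the set looked much the same. That table gives DARS a log2 fold change of -0.62 (DESeq2 adjusted p = 7.27e-13), and 19 of the 38 genes an adjusted p under 0.05, all lower, where 15.6% of its 13767 genes with an adjusted p were lower and 9.79% higher. FARSA passed in the authors' deposited table (DESeq2 adjusted p = 0.0444) and EARS2 did not (0.0901), the only differences in calls from the edgeR test.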

How the data were processed

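Raw read counts per gene, deposited by the authors without normalization, covered 3 DMSO and 3 doxycycline samples. STAR 2.5.2a, featureCounts, DESeq2 1.12.4 and hg19 are named, with no roles, per the submitters' processing notes. The annotation, strand setting and filters are not given in the sources used here. In the authors' deposited DESeq2 table each gene has a mean signal of normalized counts, a log2 fold change and its error, a Wald score, a p-value and an adjusted p-value. Total counts were 23121255 to 26214598 per sample.

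Genes were kept with filterByExpr, scaled with TMM and tested with edgeR 4.0.16 (R 4.3.3), quasi-likelihood, treatment as sole term, Benjamini-Hochberg over 15492 genes. SE is the log2 fold change over the square root of F. Alternatives were upper-quartile scaling, library size alone, DESeq2 1.42.0, the authors' deposited table (which gave the same log2 fold changes for the 38 genes as DESeq2 1.42.0, so that these count as 1 check), no filter, each sample left out, a replicate block, and a per-library spline offset of GC content and log2 length (5 degrees of freedom each, GENCODE 29, 97.1% of genes). Ratios used exact permutation tests (scipy 1.17.1). The genes, lists, classes and motifs were chosen with earlier results of these data known. Values in every sample are given for called genes among the 8 cytosolic and 6 mitochondrial genes of smallest p, for AIMP1 and AIMP2, and for their compartment partners; of the further lists, the 3 members of smallest p among those called in each direction are named. AARS, FARSA and SARS2 values in every sample, EEF1E1, CD3E and LCK were added after their values were seen. A partner gene and some markers are not reported here.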

Additional observations from a re-analysis of the deposited data

How the results depend on the processing

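The number of the 38 genes that rose was 0 in all 15 alternatives, of which DESeq2 and the authors' deposited table are the same fit in effect. The number that fell was 19 in the fit as reported and 12 under either upper-quartile scaling or library size alone, from 12 to 19 with 1 sample left out. The share lower among all tested genes with mean log2 CPM above 3 moved too. It was 23.4% in the fit as reported, 15.4% and 15.6% under those scalings, and 17.2% to 22.9% with 1 sample left out. With the replicate block it was 21.3%, and without DMSO replicate 2 and doxycycline replicate 1 it was 18.9%. Cytosolic synthetases that fell numbered 11, and 7 under upper-quartile scaling, under library size alone, with the replicate block and without DMSO replicate 2 and doxycycline replicate 1 (chosen after seeing the data), from 7 to 13 with 1 sample left out. Mitochondrial synthetases that fell numbered 6, and 3 under those same scalings, from 3 to 6 with 1 sample left out. The medians of both classes were below 0 in all 15 alternatives. DARS, GARS, FARSB, RARS, NARS, MARS2 and AIMP2 were called lower in each of them. The replicate numbers did not pair the samples: deviations of same-numbered samples correlated at -0.06, -0.23 and 0.09. Those of differently numbered samples ran from -0.28 to 0.32, the highest for DMSO replicate 2 with doxycycline replicate 1. With the replicate block 14 of the 38 genes fell, 7 of them cytosolic. The block added to the GC and length correction changed none of the 38 calls of the corrected fit (15 fell). Scarce genes were the least precise, with an SE of 0.147 for SARS2 at 109 mean normalized counts in the authors' deposited table, against 0.047 for AARS.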
